A study of Mus musculus with 19 samples.

Results

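Myc and 34 genes that work with it in ribosome production and cell growth were followed across mouse skin tumours and normal skin. The 35 genes were chosen by name, and all 35 were found among the 34807 genes of the count table. They were Myc and its relative Mycl, 28 genes of ribosome assembly (3 of rRNA transcription, 4 nucleolar hub proteins, 6 snoRNP proteins, 7 of the small subunit and 8 of the large subunit) and 5 metabolic genes that are textbook targets of MYC.

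RNA came from 15 tumours and from the skin of 4 control littermates, with 1 library from each. Tumours were driven by BRAFV600E, which was switched on by tamoxifen-inducible Cre under the Ivl promoter (6 tumours), the Krt5 promoter (K5, 5 tumours) or the Krt14 promoter (K14, 4 tumours). Ivl marks committed and differentiating keratinocytes, whereas Krt5 and Krt14 mark the basal layer. The contrast of these kinds of tumour thus bears on the cell population in which the oncogene was induced. It cannot isolate that population, because other things differed with the promoter. The paper reports that Ivl tumours took far longer to appear, so age and latency at the endpoint differed too. It also names tamoxifen as the inducer for Ivl and 4-hydroxytamoxifen for Krt5 and Krt14. All animals were female and on a C57BL/6J background. The labels call the tumours squamous cell carcinoma and give their animals an age of 7 to 20 weeks at induction, where the paper's methods give a narrower range. The normal skin is labelled wild type, and no such age was held for it. Whole tumour pieces were taken at the clinical endpoint, so the libraries hold stroma and immune cells beside the cells that carried the oncogene.

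MYC binds DNA as a dimer with MAX, at E-boxes with the core letters CACGTG, and raises the transcription of many genes that build ribosomes. Ribosome assembly begins in the nucleolus, where RNA polymerase I copies rDNA. Small nucleolar RNPs (snoRNPs) then modify and fold the transcript, and assembly factors bring the precursors of the 40S and 60S subunits to completion. Growing keratinocytes and carcinomas of stratified epithelium are known for high demand on this pathway.

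RefSeq promoter windows from 250 bases before to 50 bases after the annotated start (build GRCm38.p6) were held for 29 of the 35 genes. Myc, Npm1, Fbl, Rrp12, Bop1 and Srm had none in the table used here. The letters CACGTG, which read the same on both strands, were found in the windows of 7 of these 29 genes (24.1%). They were found for 8.09% of all 27025 genes with a window, and for 10.2% of the 14133 that are protein coding. The matches are printed because they show which members carry the textbook MYC:MAX recognition letters next to their start. Capitals mark the E-box, and each stretch is written 5′ to 3′ on the strand of the gene.
Nop2, chr6:125131811-125131840, plus strand, first E-box base 60 bases before the start: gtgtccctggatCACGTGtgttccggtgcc
Nme1, chr11:93968273-93968302, minus strand, 18 bases before the start: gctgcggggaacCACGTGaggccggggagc
Nme1, chr11:93968037-93968066, minus strand, 29 bases before another annotated start: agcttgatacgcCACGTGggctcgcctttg
Pes1, chr11:3963965-3963994, plus strand, from base 3 of the transcript: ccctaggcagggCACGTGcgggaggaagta
Wdr43, chr17:71616220-71616249, plus strand, from base 18: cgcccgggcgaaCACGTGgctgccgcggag
Tsr1, chr11:74898092-74898121, plus strand, from base 25: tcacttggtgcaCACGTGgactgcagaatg
Utp20, chr10:88826765-88826789, minus strand, from base 38: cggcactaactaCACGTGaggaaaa
Mybbp1a, chr11:72441355-72441376, plus strand, from base 41: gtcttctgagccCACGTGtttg
Of the 7 genes with the letters, 6 rose in each comparison with skin given below, with medians of 1.21 (Ivl) and 1.22 (K5/K14) on the log2 scale. Of the 22 with a window but without the letters, 20 rose, with medians of 1.32 and 1.23. Utp20 carries the letters and was not called, and Nme1 carries them at 2 annotated starts and rose by 1.72 and 1.76.

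Total counts ran from 45715309 to 72609771 per library. Levels are given as CPM, that is each gene's share of a library's counts, scaled to 10 to the power of 6 and by TMM. This normalization assumes that most genes do not change between libraries. The medians over all genes given below show how far the typical gene lay from no change. All 35 genes passed the filter of 5 counts in at least 1 library. Differences are log2 fold changes from edgeR's quasi-likelihood test with their standard error (SE), and adjusted p is Benjamini-Hochberg over all 32031 genes tested. A gene was called at an adjusted p under 0.05, and "rose" and "fell" are used of called genes. Nothing in the labels says how the animals were spread over litters or days, so p-values measure the spread between these libraries. The label of each sample also holds a code whose first part was shared within a group and differed between groups. Its meaning is not stated, and whatever it marks cannot be told apart from group.

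The libraries were not alike within groups. The deposited table had been adjusted for sequencing batch, of which the paper describes 2, with 4 and 15 libraries. Its text does not say which library was in which batch. In a scan of all 3876 sets of 4 libraries 1 set stood apart, made of Ivl replicates 1, 2 and 3 and K5 replicate 1. In that set 96.6% of 13954 genes, and all 35 members, had a mean log2 level within 0.1 of the mean over the 15 libraries outside it, against 64.1% of genes in the next set. Those 15 include all 4 skin libraries, so a set whose mean equals theirs lies, on average, nearer to skin than the other tumours do. This did not hold for each of its libraries. The median log2 difference of the 35 members from the mean of skin was 0.65 in Ivl replicate 2, 0.74 in Ivl replicate 3 and 0.94 in K5 replicate 1. In Ivl replicate 1 it was 1.27, beside a median of 1.26 over the 11 tumours outside the set. Ivl replicates 2 and 3 also held 1283 and 934 counts of Rn7sk, an abundant nuclear RNA without a poly(A) tail, per 10 to the power of 6, where skin held 2279 to 3275 and the other 13 tumours 2.12 to 13.3. Protein-coding genes held 93.2% to 95.9% of counts in skin and 96.1% to 98.3% in tumours. Genes without a count numbered 3242 to 3670 in skin and 5562 to 10882 in tumours. In these 3 measures no skin library overlapped with a tumour. Library composition and tissue therefore cannot be told apart in the comparisons with skin, and the part of composition was not tested. Values are from the 19 libraries unless the 15 outside the set (3 Ivl, 4 K5, 4 K14 and 4 skin) are named, and counts and medians of each role and pathway list are given for both.

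Myc (chr15:61985391-61990374, plus strand, GRCm38) was higher in all 3 kinds of tumour than in skin. In skin it stood at 41.0, 37.7, 34.4 and 34.7 CPM. In K5 tumours it stood at 72.2, 105, 86.4, 69.9 and 79.8 CPM and in K14 tumours at 65.7, 65.3, 95.2 and 91.9, and in the 6 Ivl tumours it ran from 57.7 through a median of 78.1 to 93.6. Every tumour lay above every skin library, and the 3 kinds of tumour overlapped. The log2 fold change against skin was 1.05 ± 0.16 (SE; adjusted p = 4.5e-05) for Ivl and 1.14 ± 0.15 (adjusted p = 7.3e-06) for K5/K14 tumours. Over the 15 libraries it was 1.23 ± 0.16 and 1.16 ± 0.14. An exact two-sided permutation test of the difference in mean log2 CPM gave 1.04 for Ivl (n = 6 and 4, p = 0.00476) and 1.12 for K5/K14 tumours (n = 9 and 4, p = 0.0014), in both the smallest p that the design allows. Between Ivl and K5/K14 tumours the difference was -0.08 (exact permutation test, n = 6 and 9, p = 0.546), and over the 15 libraries it was 0.08 (exact permutation test, n = 3 and 8, p = 0.618).

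Mycl, the MYC family member first found amplified in lung cancer, did not follow Myc. It stood at 69.0, 26.2, 38.8 and 23.5 CPM in skin, at 23.6, 22.03, 19.1, 17.2 and 12.9 in K5 tumours and at 44.5, 51.1, 21.8 and 27.5 in K14 tumours. The Ivl tumours ran from 14.51 through a median of 29.4 to 49.3. The groups overlapped, and the highest value of all was in normal skin replicate 1. The log2 fold change was -0.33 ± 0.39 for Ivl and -0.56 ± 0.35 for K5/K14 tumours, and neither passed (adjusted p = 0.48 and 0.17). Per kb of annotated exon, mean Myc stood at 13.6 CPM in skin, 28.3 in Ivl and 29.9 in K5/K14 tumours. On the same scale Mycl stood at 9.75, 7.75 and 6.596, below Myc in each.

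**Figure D1:**
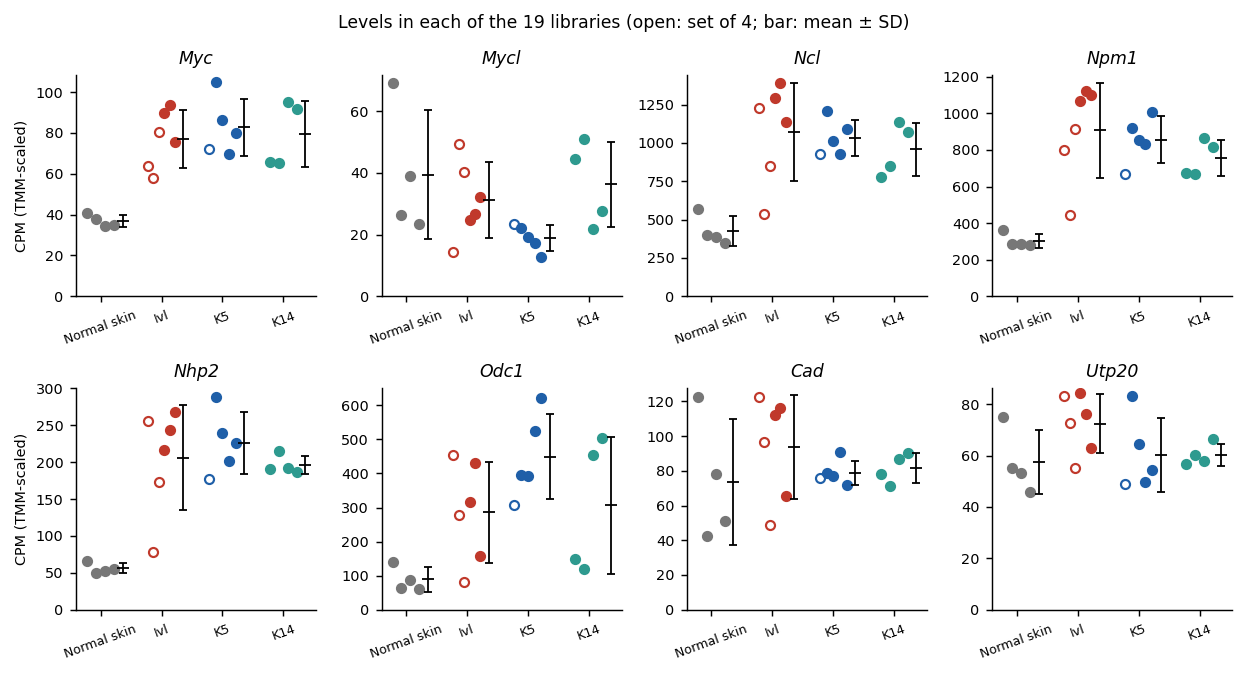
CPM (TMM-scaled, linear axis from 0) of 8 genes in each of the 19 libraries, by group; points are libraries, open points are the set of 4 named above, and the bar beside each group is its mean ± SD (n = 4 skin, 6 Ivl, 5 K5, 4 K14). Myc, Npm1 and Nhp2 lie above skin in all 15 tumours, Odc1 spans 80.6 to 623 CPM in tumours, and Mycl, Cad and Utp20 overlap with skin.

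Against normal skin, 32 of the 35 genes rose in Ivl tumours and none fell, where 20.4% of all genes tested rose and 15.5% fell. In K5/K14 tumours 32 of 35 rose and none fell, where 23.2% of all genes rose and 38.9% fell. In both comparisons the 3 genes not called were Mycl, Utp20 and Cad. The linear fold of the members that rose ran from 1.596 to 3.67 for Ivl and from 1.34 to 4.36 for K5/K14 tumours, and 27 of 35 were over 2-fold in each. The median log2 fold change of the 35 was 1.32 for Ivl and 1.23 for K5/K14 tumours, beside -0.46 and -0.60 over all genes. The members are well expressed, and of the 10255 protein-coding genes with a mean count of at least 500, 45.3% rose in Ivl and 49.5% in K5/K14 tumours, with medians of 0.32 and 0.35. Over the 15 libraries 32 of 35 rose in each comparison (22.2% and 23.9% of all genes), with medians of 1.49 and 1.26. Both comparisons use the same 4 skin libraries.

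Every Ivl tumour lay above every skin library for 23 of 35 genes (13.2% of all genes), and every K5/K14 tumour did so for 27 of 35 (16.7%). Outside the set of 4 these counts were 32 (22.3% of all genes) and 27 (17.3%). The skin library nearest to the tumours was normal skin replicate 1, the highest of the 4 for 32 of the 35 genes. Its median difference from the mean of skin over the 35 genes was 0.40 on the log2 scale, where the other 3 skin libraries stood between -0.21 and -0.08. It also held the most hair follicle marker RNA of all libraries (4960.4 CPM summed over 9 markers, where the other skin libraries held 39.0 to 2219) and 1452 CPM over 18 proliferation genes (the others 508 to 969). The part of these in its higher levels was not tested. Among tumours the lowest was Ivl replicate 2 for 17 genes, Ivl replicate 3 for 11 and K5 replicate 1 for 4, all in the set of 4. K5 replicate 2 was the highest for 18 genes and Ivl replicate 5 for 10.

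The size of the change depended on the scaling. With library totals in place of TMM the median of all genes moved to -1.13 for Ivl and -1.399 for K5/K14 tumours, and the median of the 35 to 0.56 and 0.40. Of all genes 2868 then rose and 15460 fell in Ivl tumours, and 3239 rose and 20668 fell in K5/K14 tumours. On that scale 24 members rose and none fell in Ivl tumours, and 21 rose and 4 fell (Mycl, Utp20, Cad and Ppat) in K5/K14 tumours. Relative to the median of the 10255 well-expressed coding genes, the median of the 35 stood 0.99 higher with TMM and 0.94 higher with totals in Ivl tumours, and 0.88 and 0.86 higher in K5/K14 tumours. On either scaling at least 32 of the 35 lay above that median.

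**Figure D2:**
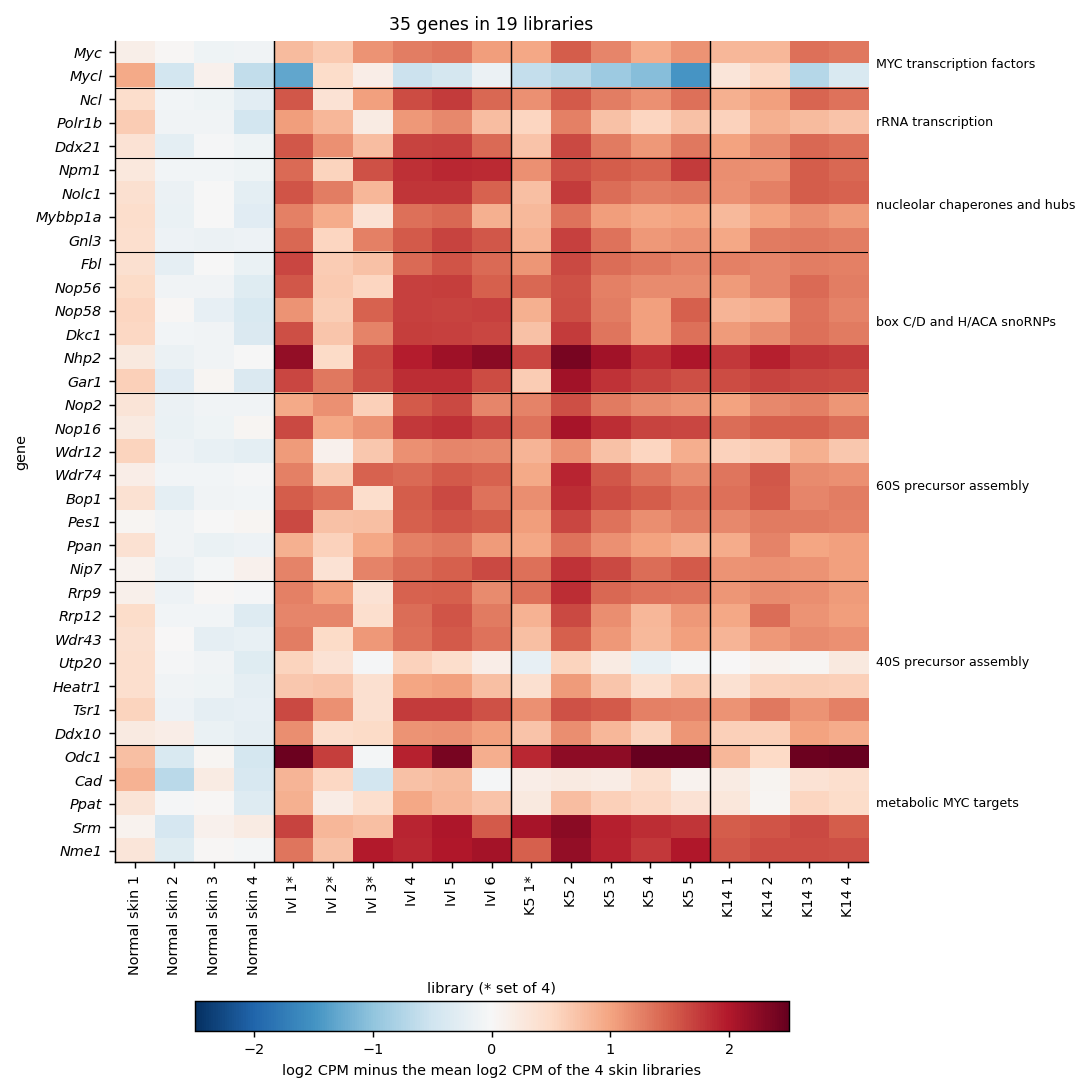
Each of the 35 genes (lines, grouped by role) in each of the 19 libraries (columns), coloured by log2 CPM minus the mean log2 CPM of the 4 skin libraries; an asterisk marks the set of 4. Tumour columns are red for nearly all genes outside Mycl, Utp20 and Cad, Ivl 2, Ivl 3 and K5 1 are the palest tumours for most genes, and Nhp2 and, in most tumours, Odc1 are dark.

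Skin and tumours differed in the summed levels of several sets of cell type markers. Summed over 8 basal keratinocyte markers, skin held 4573 to 10076 CPM, Ivl tumours 11589.5 to 59147 and K5/K14 tumours 43291 to 66989. Of these 8 markers 4 rose in Ivl tumours, and 6 rose and 2 fell in K5/K14 tumours. All 8 differentiated keratinocyte markers rose in both, from a sum of 2728 to 5822 CPM in skin to 11464 to 57571 and 10317 to 48062. Over 10 skeletal muscle markers skin held 3316 to 13886 CPM, Ivl tumours 13.6 to 6789.6 and K5/K14 tumours 22.8 to 741. Of these 10 markers none was called in Ivl tumours, and 9 fell in K5/K14 tumours. Over 6 neutrophil markers skin held 9.07 to 37.3 CPM, Ivl tumours 103 to 6576 and K5/K14 tumours 1592 to 6350.5. Of these 6 markers 4 rose in each comparison. The defining marker Ly6g was under 1 CPM in each group and Retnlg was so in skin, so the sum gives no measure of neutrophil number. The ranges of the 3 groups overlapped for hair follicle (28.7 to 4960.4 CPM over all libraries), fibroblast (861 to 18654), endothelial (65.0 to 419), adipocyte (86.1 to 3483), macrophage (95.4 to 1123) and T cell markers (2.81 to 31.8, with Cd8a under 1 CPM in each group). Of the T cell markers 5 of 7 were under 1 CPM in K5/K14 tumours. Even so, 4 of 7 adipocyte and 4 of 7 T cell markers fell in K5/K14 tumours. There 1 marker each of hair follicle, fibroblast, endothelial and macrophage also fell. A rise was called for 1 endothelial marker in each comparison, and nothing else in these lists was called in Ivl tumours. In whole tissue, fewer cells of a type and less RNA per cell cannot be told apart, and the part of keratinocyte or muscle content in the rise of the 35 genes was not tested.

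The genes of rRNA transcription rose in both comparisons. Ncl encodes nucleolin, an abundant nucleolar RNA-binding protein, and stood at 567, 397, 386 and 347 CPM in skin, at 536 to 1391 in Ivl tumours (median 1180.0) and at 775 to 1209 in K5/K14 tumours (median 1013). Of the tumours, Ivl replicate 2 fell within the skin range and the other 14 lay above it. The log2 fold change was 1.34 ± 0.23 (adjusted p = 0.00013) and 1.24 ± 0.21 (adjusted p = 9.8e-05). Ddx21, a nucleolar RNA helicase, rose by 1.39 ± 0.20 and 1.23 ± 0.19. Polr1b, a large catalytic subunit of RNA polymerase I, rose less, by 0.83 ± 0.21 and 0.71 ± 0.19 (adjusted p = 0.0038 and 0.0041). Its 37.4 CPM in normal skin replicate 1 lay above 4 of the 15 tumours. With library totals Polr1b was not called in either comparison (0.08, adjusted p = 0.71, and -0.13, adjusted p = 0.53). All 3 genes rose over the 15 libraries, with medians of 1.58 and 1.25.

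All 4 nucleolar hub genes rose. Npm1 encodes nucleophosmin, a chaperone of histones and ribosomal proteins, and had the highest level per kb of exon of the 35, with 114 CPM per kb in skin, 341 in Ivl and 305 in K5/K14 tumours. It stood at 363, 286, 287 and 278 CPM in skin, at 444 to 1121 in Ivl and at 668 to 1010.1 in K5/K14 tumours, and no tumour overlapped with skin. Its log2 fold change was 1.58 ± 0.21 and 1.42 ± 0.20 (adjusted p = 2.3e-05 and 1.5e-05). Npm1 has many processed copies in the genome, so how its reads were assigned is uncertain. Nolc1, a partner of snoRNPs in nucleoli and Cajal bodies, rose by 1.47 ± 0.20 and 1.32 ± 0.19. Gnl3, the nucleolar GTPase nucleostemin, rose by 1.36 ± 0.20 and 1.22 ± 0.19, and Mybbp1a, a nucleolar MYB-binding protein, by 1.06 ± 0.19 and 1.01 ± 0.18. The call for Mybbp1a was lost with library totals in both comparisons (0.31, adjusted p = 0.11, and 0.17, adjusted p = 0.32). All 4 rose over the 15 libraries, with medians of 1.62 and 1.32.

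All 6 snoRNP proteins rose, by 1.27 to 1.88 in Ivl and 1.17 to 1.92 in K5/K14 tumours on the log2 scale. The largest change was in Nhp2, a core protein of the H/ACA particles that turn uridine into pseudouridine. Nhp2 stood at 66.0, 50.3, 52.3 and 55.8 CPM in skin, at 78.1 to 268 in Ivl tumours (median 230.3) and at 177 to 289 in K5/K14 tumours (median 202). Every tumour was above every skin library, and Ivl replicate 2 was the one nearest to skin. The log2 fold change was 1.88 ± 0.25 (adjusted p = 2.2e-05) and 1.92 ± 0.24 (adjusted p = 4e-06). Gar1 of the same particle rose by 1.61 ± 0.22 and 1.597 ± 0.21, and its pseudouridine synthase Dkc1 by 1.45 ± 0.22 and 1.23 ± 0.21. In the box C/D particle, which methylates rRNA, the methyltransferase Fbl rose by 1.27 ± 0.19 and 1.29 ± 0.18. Its core proteins Nop56 and Nop58 rose by 1.33 and 1.395 in Ivl and by 1.27 and 1.17 in K5/K14 tumours. With library totals Nop58 (0.32, adjusted p = 0.13) and Dkc1 (0.39, adjusted p = 0.06) were not called in K5/K14 tumours. All 6 rose over the 15 libraries, with medians of 1.66 and 1.298.

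Of 7 small subunit assembly genes, 6 rose in both comparisons. Tsr1, a late assembly factor related to GTPases, had the largest change in Ivl tumours, 1.41 ± 0.22, and Rrp9, a U3 snoRNP protein, in K5/K14 tumours, 1.33 ± 0.18. Tsr1 shares 1240 exonic bases with Srr on the opposite strand, and whether strand was used in counting is not stated, so reads in the shared stretch (of 3837 exonic bases of Tsr1) are uncertain. Rrp12, Wdr43 and Ddx10 rose by 1.203, 1.197 and 0.91 in Ivl and by 1.12, 1.04 and 0.83 in K5/K14 tumours. Heatr1, a component of the early processome, rose by 0.75 ± 0.15 and 0.60 ± 0.14. Utp20, a large scaffold of that complex, stood at 75.1, 55.3, 53.3 and 45.8 CPM in skin, at 55.3 to 84.4 in Ivl and at 49.1 to 83.2 in K5/K14 tumours. The 3 groups overlapped, and the log2 fold change was 0.34 ± 0.16 (adjusted p = 0.1) and 0.07 ± 0.15 (adjusted p = 0.69). With library totals Heatr1 and Ddx10 were called in neither comparison (adjusted p = 0.11 to 0.99), and Rrp12 (0.29, adjusted p = 0.13) and Wdr43 (0.21, adjusted p = 0.23) were not called in K5/K14 tumours. Within the 15 libraries 6 of 7 rose in each comparison, with medians of 1.39 and 1.08.

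All 8 large subunit assembly genes rose, with median log2 fold changes of 1.30 and 1.33. Pes1, Bop1 and Wdr12 form the PeBoW complex, which is needed to mature the rRNAs of that subunit. Pes1 rose by 1.33 ± 0.18 and 1.29 ± 0.17 and Bop1 by 1.33 ± 0.20 and 1.44 ± 0.19, while Wdr12 rose by 0.92 ± 0.20 and 0.74 ± 0.19. Pes1 was even in skin, at 53.4, 48.9, 51.4 and 53.9 CPM, and stood at 85.8 to 165 CPM in tumours, with no overlap. Nop16 had the largest change of the 8, 1.53 ± 0.18 and 1.61 ± 0.17. Nop2, an rRNA methyltransferase, rose by 1.21 ± 0.17 and 1.22 ± 0.17. The assembly factors Wdr74, Nip7 and Ppan rose by 1.32, 1.28 and 1.01 in Ivl and by 1.37, 1.37 and 1.05 in K5/K14 tumours. With library totals Wdr12 and Ppan were called in neither comparison, at 0.16 (adjusted p = 0.42) and 0.28 (adjusted p = 0.10) in Ivl and at -0.095 (adjusted p = 0.61) and 0.23 (adjusted p = 0.15) in K5/K14 tumours. All 8 rose over the 15 libraries, with medians of 1.48 and 1.35.

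The metabolic genes held some of the largest and some of the smallest changes. Odc1 (chr12:17544794-17551505, plus strand, GRCm38), the first enzyme of polyamine synthesis, stood at 141, 64.6, 86.7 and 61.9 CPM in skin. In K5 tumours it stood at 307, 396, 394, 525 and 623 CPM, in K14 tumours at 149.7, 118, 456 and 505, and in Ivl tumours at 80.6 to 454 (median 297). All 5 K5 tumours lay above skin, while Ivl replicate 3 and K14 replicate 2 fell within its range and K14 replicate 1 and Ivl replicate 6 (158 CPM) lay close above it. The log2 fold change of Odc1 was 1.69 ± 0.49 (adjusted p = 0.012) and 2.12 ± 0.48 (adjusted p = 0.0012). Among the 11 tumours outside the set of 4, the highest was 5.26 times the lowest for Odc1 and 3.97 times for Mycl, where the other 33 genes ran from 1.35 (Fbl) to 1.89 (Ppat). Over the 15 libraries the call for Odc1 in Ivl tumours was lost without Ivl replicate 5 (1.42, adjusted p = 0.054). It was also lost over the 19 with library totals (0.93, adjusted p = 0.082).

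Srm, the spermidine synthase next in that pathway, stood at 26.5, 18.6, 26.8 and 28.8 CPM in skin, 41.9 to 101 in Ivl and 70.6 to 119 in K5/K14 tumours, with no overlap with skin. It rose by 1.52 ± 0.24 and 1.80 ± 0.23. Nme1, a nucleoside diphosphate kinase, rose by 1.72 ± 0.22 and 1.76 ± 0.22, though it closely resembles its neighbour Nme2 and its counts are uncertain. Ppat, which opens purine synthesis, rose by 0.67 ± 0.17 (adjusted p = 0.0045) and 0.42 ± 0.16 (adjusted p = 0.026). The second call was lost with DESeq2 (0.31, adjusted p = 0.095) and without K14 replicate 1 or any of normal skin replicates 2, 3 and 4 (adjusted p = 0.051 to 0.11). Ppat also shares 272 exonic bases with Paics on the opposite strand, of its 4421, and reads in that stretch are uncertain. With library totals Ppat was not called in Ivl tumours (-0.059, adjusted p = 0.75) and was called lower in K5/K14 tumours (-0.41, adjusted p = 0.017). Cad, which carries out the first steps of pyrimidine synthesis, stood at 123, 42.3, 77.9 and 51.1 CPM in skin, 49.1 to 122 in Ivl and 71.1 to 90.7 in K5/K14 tumours. All tumours lay within the range of skin, and the log2 fold change was 0.35 ± 0.26 and 0.12 ± 0.24 (adjusted p = 0.27 and 0.66). Without normal skin replicate 1, Cad (0.71) and Utp20 (0.48) were called raised in Ivl tumours (adjusted p = 0.032 for each), and within the 15 libraries Cad was also called in K5/K14 tumours (0.50, adjusted p = 0.032). With all 4 skin libraries, 4 of the 5 metabolic genes rose in each comparison within the 15, with medians of 1.77 and 1.76.

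**Figure D3:**
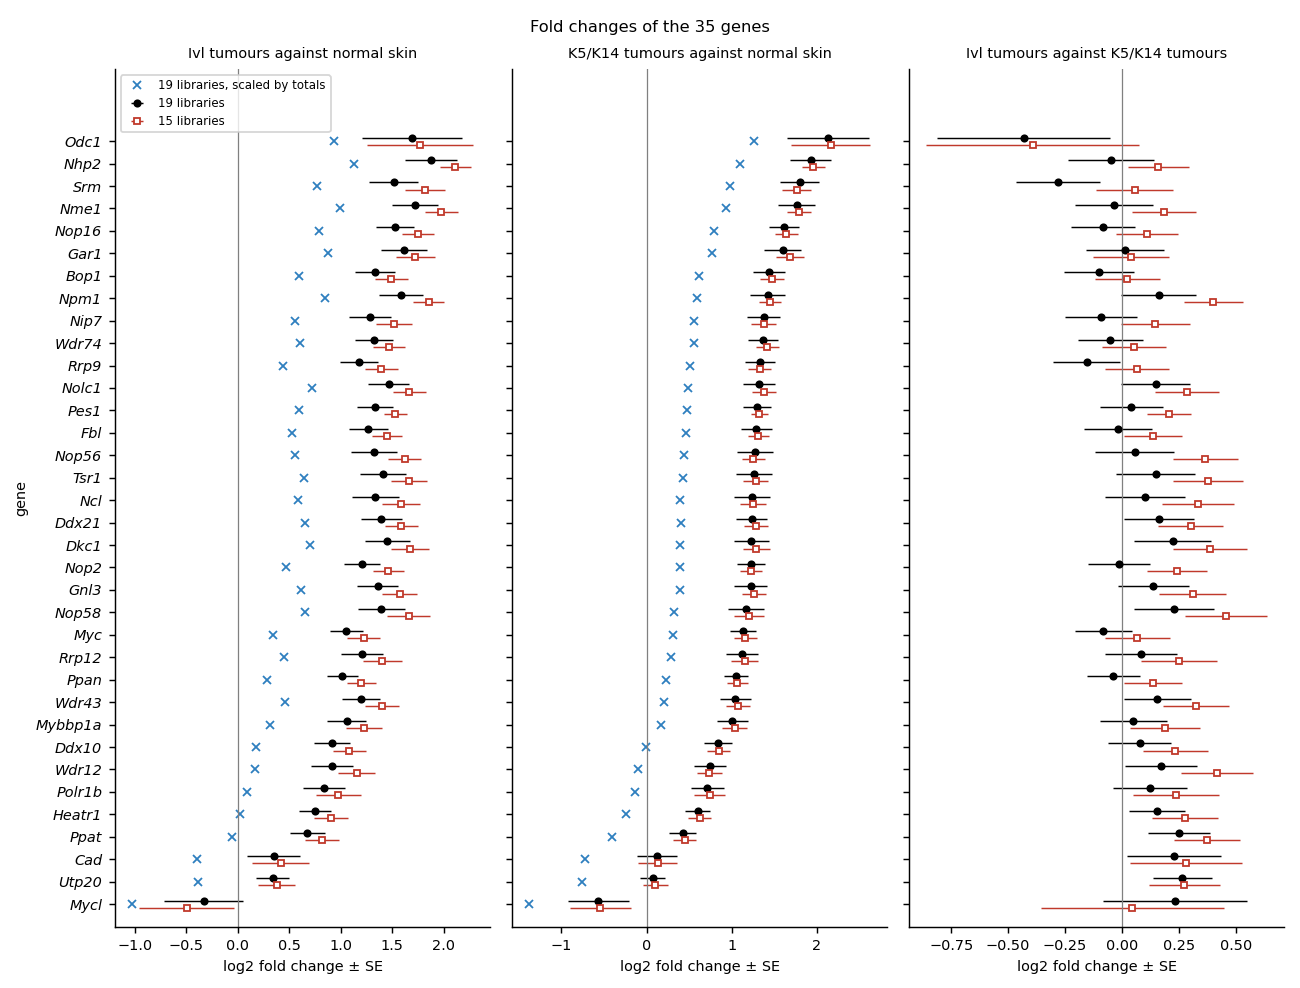
Log2 fold change ± SE of the 35 genes in 3 comparisons, ordered by the value in K5/K14 tumours against skin; black circles use all 19 libraries, red squares the 15 outside the set of 4, and blue crosses (without SE) all 19 scaled by library totals. Against skin 34 of 35 black circles lie above 0 in each panel and the crosses lie to their left, and in the third panel 22 of 35 circles and 34 of 35 squares lie above 0.

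Between Ivl and K5/K14 tumours none of the 35 was called by edgeR or by DESeq2, where edgeR called 2.36% of all genes. At so low a share of all genes, a count of 0 among 35 is no result about them. None had an unadjusted p under 0.05, and the lowest adjusted p was 0.25 (Utp20, 0.27 ± 0.13). Log2 differences ran from -0.43 (Odc1) to 0.27 with a median of 0.08, and their SEs from 0.12 to 0.38. Of the 35 differences 22 were above 0. Over the 15 libraries 0.41% of all genes and none of the 35 were called, and 34 of 35 differences were above 0 (Ivl higher), with a median of 0.24, where 53.6% of the 10255 well-expressed coding genes were above 0, with a median of 0.02. Such a count describes genes of the same libraries and not independent samples. An unadjusted p under 0.05 was found for 10 of the 35 and for 15.2% of those coding genes. Leaving out 1 more library moved the 10 to 2 (without Ivl replicate 4, Ivl replicate 5 or K14 replicate 1) and to 17 (without K5 replicate 2), and the 34 to between 30 and 34. The lowest adjusted p was then 0.22, for Npm1 (0.40 ± 0.13), whose 3 Ivl tumours stood at 1068, 1121 and 1103 CPM and whose 8 K5 and K14 tumours stood at 668 to 1010.1, without overlap. With the set of 4 as a covariate in the fit over 19 libraries, 32 of 35 differences were above 0 and none was called.

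K5 and K14 tumours were compared to see whether they could be joined. None of the 35 and 0.0% of all genes were called by edgeR, with 2 members and 1945 of all genes at an unadjusted p under 0.05, while DESeq2 called 201 genes and none of the 35. The 2 members were Mycl (-0.93 ± 0.35, lower in K5) and Nip7 (0.46 ± 0.18). Nip7 stood at 53.0, 71.9, 63.7, 54.0 and 58.8 CPM in K5 and at 44.6, 44.9, 44.8 and 41.4 in K14 tumours, without overlap. Over the 15 libraries edgeR called 0.0532% of genes and none of the members (Nip7 0.50 ± 0.10, adjusted p = 0.12). DESeq2 called 534 genes there, and of the members Nip7 alone (0.51, adjusted p = 0.00052). Beside 534 genes, 1 call among 35 members is no result about them.

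Fold changes of the members were also set against their coding length. The 8 genes with a longest annotated coding sequence under 1000 bases, among them Nme1 (456), Nhp2 (459) and Srm (906), had a median log2 fold change of 1.55 for Ivl and 1.603 for K5/K14 tumours. The 14 with 2000 bases or more ran from 0.34 to 1.47 for Ivl and from 0.07 to 1.44 for K5/K14 tumours, with Utp20 (8367), Cad (6675) and Heatr1 (6429) at the low end. The median of the short genes stood 0.35 above that of the long ones for Ivl and 0.52 for K5/K14 tumours. Spearman's rho between coding length and log2 fold change over the 35 genes was -0.51 and -0.62, which describes genes of the same libraries and not independent samples. Over the 10255 well-expressed coding genes rho was -0.39 in each comparison, with medians of 0.76 and 0.85 under 1000 bases and of 0.00 and -0.04 at 2000 bases or more. In each of the 3 length classes (under 1000, 1000 to under 2000, and 2000 or more) the median of the members lay above that of the well-expressed coding genes of that class. Coding length thus moved with the fold change in members and in other genes alike, and its part in the differences between members was not tested.

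**Figure D4:**
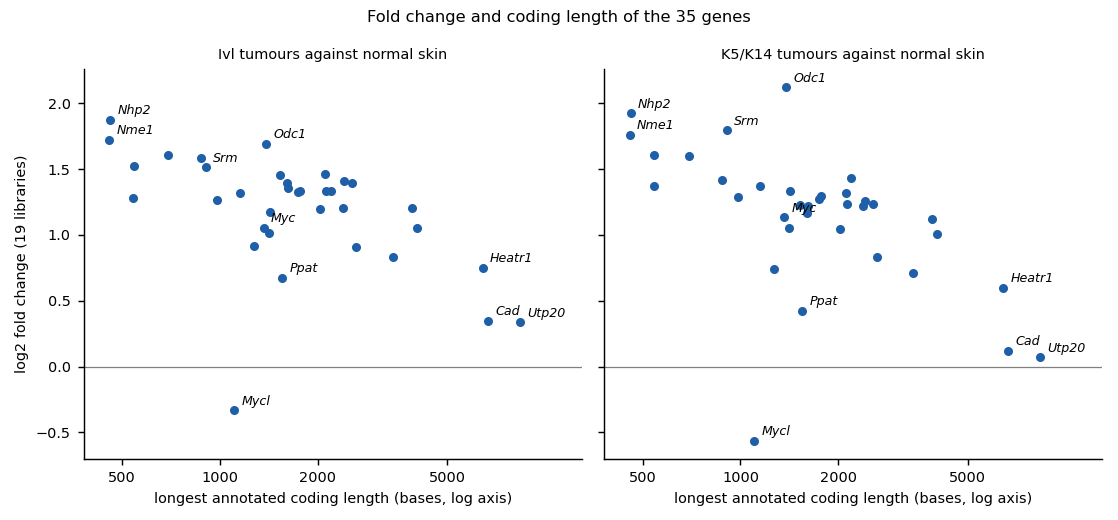
Log2 fold change against normal skin (19 libraries) of the 35 genes by their longest annotated coding length in bases (log axis), for Ivl and K5/K14 tumours. The values fall from Nhp2 and Nme1 on the left to Cad and Utp20 on the right, with Mycl below the rest.

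Most other genes of the pathway, listed by textbook role and without the 35, also rose. Of 42 small subunit assembly genes 40 rose in each comparison and none fell, with medians of 0.97 for Ivl and 0.93 for K5/K14 tumours. Rrp36 had the smallest adjusted p of that list in K5/K14 tumours (1.09 ± 0.12, adjusted p = 1.7e-06). Of 43 large subunit assembly genes 39 rose in each, with medians of 1.14 and 1.07. Rrp1 (1.12 ± 0.11, adjusted p = 1.3e-06) led that list, and Mdn1, the giant AAA ATPase that remodels 60S precursors, was the one that fell, by 0.58 ± 0.20 in K5/K14 tumours (adjusted p = 0.019). Of 14 snoRNP assembly genes 11 rose in Ivl and 12 in K5/K14 tumours (medians 0.75 and 0.74), with Ruvbl1, an ATPase of the assembly chaperone, at 1.18 ± 0.15 in the latter. Of 79 cytosolic ribosomal protein genes 78 and 79 rose, with medians of 1.42 and 1.599. Within the 15 libraries 40 and 40 of the small subunit list rose (medians 1.17 and 0.96), 39 and 39 of the large subunit list (1.37 and 1.11, with Mdn1 the one that fell, in K5/K14 tumours), 12 and 12 of the snoRNP list (0.93 and 0.75) and 79 and 79 of the ribosomal proteins (1.596 and 1.62). Reads of ribosomal protein genes are hard to assign among their many copies.

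Library totals changed these counts. On that scale 15 of the 42 small subunit genes rose in each comparison and 1 and 3 fell, 22 and 17 of the 43 large subunit genes rose and 6 and 10 fell, and 1 and 3 of the 14 snoRNP genes rose and 2 and 3 fell. The ribosomal proteins still rose in 74 and 78 of 79. Of 13 further subunits and initiation factors of RNA polymerase I 8 rose in Ivl and 9 in K5/K14 tumours and none fell, with medians of 0.58 and 0.42. Of the well-expressed coding genes 45.3% and 49.5% rose, with medians of 0.32 and 0.35, so these counts lie near that share. With library totals 4 of the 13 rose and 4 fell in Ivl, and 4 rose and 8 fell in K5/K14 tumours. Of the 13, 9 and 10 rose and none fell over the 15 libraries (medians 0.705 and 0.42), where 48.1% and 50.9% of the well-expressed coding genes rose. Polr1d, shared with RNA polymerase III, rose by 1.45 ± 0.18 and 1.63 ± 0.17 (adjusted p = 1.8e-05 and 1.4e-06).

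In the polyamine and nucleotide list 17 of 26 genes rose in each comparison, none fell in Ivl and 2 fell in K5/K14 tumours (medians 0.56 and 0.47), where of the well-expressed coding genes 45.3% and 49.5% rose and 6.92% and 17.8% fell. With library totals 6 rose and 6 fell in Ivl, and 7 rose and 13 fell in K5/K14 tumours. Within the 15 libraries 17 rose and 2 fell in Ivl, and 18 rose and 2 fell in K5/K14 tumours (medians 0.64 and 0.50), where 48.1% and 50.9% of the well-expressed coding genes rose. Smox, which oxidizes spermine back to spermidine, stood at 14.49 to 28.1 CPM in skin, 51.4 to 138 in Ivl and 124 to 268 in K5/K14 tumours. It rose by 2.14 ± 0.29 and 3.15 ± 0.29. Smox was lower in Ivl than in K5/K14 tumours (-1.01 ± 0.22, adjusted p = 0.03), though not past the threshold over the 15 libraries (-0.70, adjusted p = 0.24). Sms, the spermine synthase, fell by 0.94 ± 0.24 in K5/K14 tumours (adjusted p = 0.003), and in Ivl tumours was at -0.62 ± 0.27 (adjusted p = 0.074). Sms fell in both over the 15 libraries, by 1.06 (adjusted p = 0.0013) in Ivl and by 0.88 (adjusted p = 0.00041) in K5/K14 tumours.

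Among 11 partners and antagonists of MYC, 5 rose in each comparison, and 2 fell in Ivl and 4 in K5/K14 tumours, with medians of 0.10 and 0.13. Of the well-expressed coding genes, as given above, 45.3% and 49.5% rose and 6.92% and 17.8% fell. Within the 15 libraries 5 of the 11 rose and 5 fell in each comparison (medians -0.05 and 0.18), and with library totals 3 and 4 rose and 6 fell in each. Max, the obligate partner of MYC, rose by 1.105 ± 0.15 and 1.19 ± 0.14 (adjusted p = 2.1e-05 and 2.4e-06), from 41.4 to 53.7 CPM in skin to 72.0 to 125 in Ivl and 92.8 to 123 in K5/K14 tumours. Mga, a MAX partner known as a repressor, fell by 0.38 ± 0.14 in Ivl (adjusted p = 0.036) and by 0.80 ± 0.13 in K5/K14 tumours (adjusted p = 3.6e-05). Of 18 proliferation genes 17 rose in Ivl and 16 in K5/K14 tumours (medians 1.01 and 1.04), with Pcna, the sliding clamp of DNA replication, at 0.88 ± 0.13 and 0.97 ± 0.12. With library totals 2 and 4 of the 18 rose, and over the 15 libraries 17 and 16 (medians 1.13 and 1.099).

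**Figure D5:**
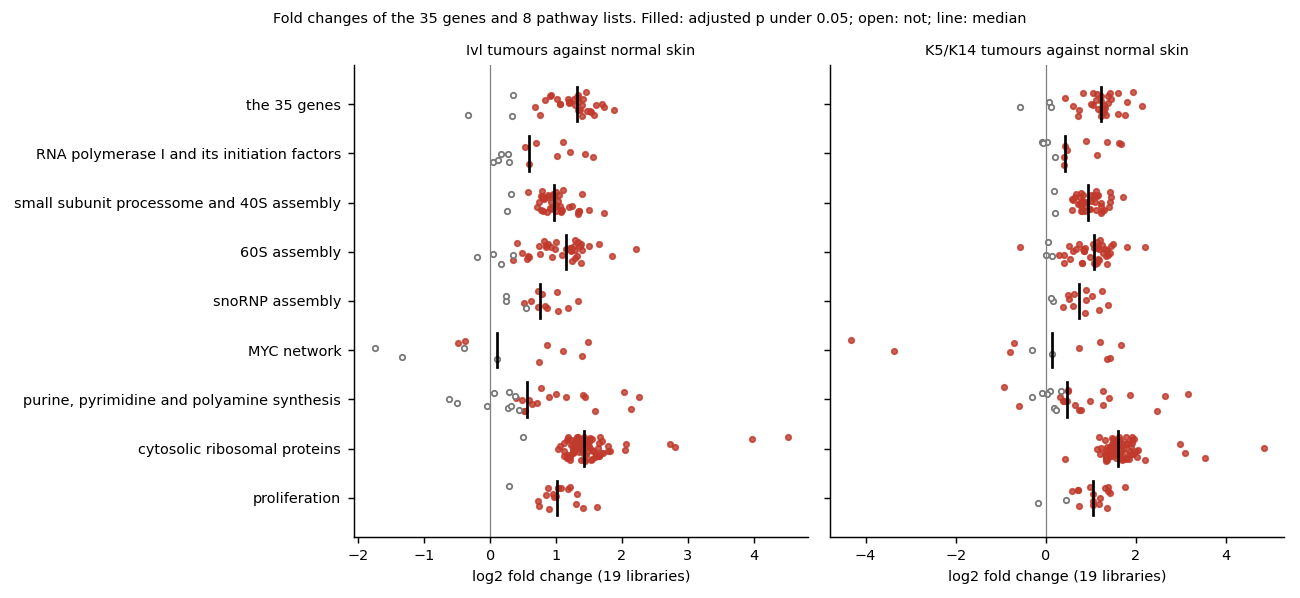
Log2 fold change against normal skin (19 libraries) of the 35 genes and of the genes of 8 pathway lists that do not contain them; filled red points passed an adjusted p of 0.05, open points did not, and the vertical line is the median of each list. Ribosomal proteins and the assembly lists lie to the right of 0 almost throughout, while the MYC network and the nucleotide and polyamine list spread to both sides.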

How the data were processed

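Poly(A) RNA was sequenced in pairs from a strand-specific kit, with 1 library from each of 15 tumours and 4 skin samples. The study's methods and the submitters' processing notes name FastQC 0.11.8, Trim Galore, HISAT2 2.1.0 on GRCm38 (Ensembl annotation) and featureCounts of Subread 1.6.3. The authors then corrected the table for batch with ComBat-seq, so the deposited values are estimated counts. All were whole numbers, so no value was rounded, and the test planned for plain counts was kept. Whether strand was used in counting, and which library belonged to which batch, is not given in the sources used here.

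The 35 members, the pathway and marker lists and the tests were chosen with earlier results of these data known. Gene identifiers were matched to GENCODE M21 (34694 of 34807). The 32031 genes reaching 5 counts in any library were fitted with edgeR 4.0.16 (quasi-likelihood test, robust, TMM) with Ivl, K5/K14 and normal skin as groups, and with 4 groups for K5 against K14, with Benjamini-Hochberg adjustment. The SE is the size of the log2 fold change divided by the square root of F. DESeq2 1.42.0, other scalings, filters and sample sets were alternatives, and the fits were tested on simulated counts. Named pathway genes are those with the smallest adjusted p in each direction in K5/K14 tumours against skin. The one from the ribosomal protein list is not reported here. Srr, Paics, Nme2 and Rn7sk are named for their bearing on a member. Permutation tests used log2 CPM with a prior count of 2. No interval for the sampling of reads is given, since the counts had been adjusted. At 45715309 to 72609771 counts per library the spread between libraries limits the precision.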

Additional observations from a re-analysis of the deposited data

Results flagged for a closer look

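In 19 of 135 groups of values tested, 1 library stood farther from the others than Dixon's 95% limit. Chance gives about 5% for independent groups, but these groups are genes of the same libraries and are not independent. Normal skin replicate 1 was the high one for 7 members. It stood at 363 CPM for Npm1 (other skin libraries 278 to 287), 43.0 for Nop2 (31.0 to 32.5), 35.3 for Wdr12 (20.5 to 22.2), 34.8 for Ppan (23.997 to 24.999), 71.0 for Heatr1 (45.9 to 49.8), 62.3 for Gnl3 (41.7 to 42.2) and 35.8 for Tsr1 (20.7 to 22.2). K5 replicate 2 was the high one of the 9 K5/K14 tumours for 6 members and 1 pathway gene. It stood at 157 CPM for Fbl (others 108 to 133), 105 for Nop2 (69.5 to 84.6), 57.1 for Polr1b (34.7 to 44.7), 57.0 for Rrp9 (33.3 to 42.8), 165 for Pes1 (106 to 134), 112 for Heatr1 (69.8 to 85.7) and 47.6 for Ruvbl1 (32.8 to 39.5).

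Libraries of the set of 4 were low for 4 genes and high for 1. K5 replicate 1 stood at 17.2 CPM for Gar1 (the other K5/K14 tumours 34.0 to 48.0) and 40.3 for Mga (53.1 to 64.3). Ivl replicate 2 stood at 28.6 CPM for Wdr74 (other Ivl tumours 44.5 to 53.8), and Ivl replicate 3 at 44.3 for Bop1 (83.9 to 102) and 18.9 for Sms (6.37 to 9.42).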

How the results depend on the processing

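The count of members that rose was 31 or 32 of 35 in both comparisons with skin under DESeq2, its size factors, both other filters, protein-coding genes alone, the set of 4 as a covariate, K5 and K14 as separate groups and an adjusted p under 0.01, and 27 in each with a log2 fold change over 1. Leaving out 1 library in turn, within the 19 or the 15, gave 31 to 34 for Ivl and 31 to 33 for K5/K14 tumours, and 0 for both comparisons between tumours. Leaving out 1 of the 19, the difference in Myc ran from 0.98 to 1.115 (Ivl against skin), 1.07 to 1.17 (K5/K14 against skin) and -0.14 to -0.01 (Ivl against K5/K14). Library totals changed directions. Ppat turned to -0.059 in Ivl tumours, and in K5/K14 tumours Polr1b turned to -0.13, Wdr12 to -0.095, Utp20 to -0.76, Heatr1 to -0.24, Ddx10 to -0.0023, Cad to -0.72 and Ppat to -0.41, of which Utp20, Cad and Ppat were called lower. A change of sign where neither fit made a call was not counted as a reversal. In K5 against K14 tumours, DESeq2 within the 15 libraries, chosen after seeing the data like the other fits that combine the 15 with a second choice, called 1 member (Nip7), and the cause was not tested.

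Calls over all genes moved more. Ivl against skin gave 11515 calls, 18328 with library totals and 17566 within the 15 libraries. K5/K14 against skin gave 19916, and 11521 among protein-coding genes alone, where fewer genes were tested. Ivl against K5/K14 gave 756 calls, 2133 with DESeq2, 498 among protein-coding genes, 449 with the set as a covariate, 131 within the 15 libraries, and from 127 (without K5 replicate 1) to 1328 (without K14 replicate 1) leaving out 1 of 19. K5 against K14 gave 0 calls, 201 with DESeq2, and 17 (edgeR) and 534 (DESeq2) within the 15. Replicate numbers shared between groups were tried as a pairing. Deviations of 25 same-numbered pairs correlated from -0.50 to 0.43 (median -0.0064), with 9 over 0.1. Those of 109 pairs with different numbers correlated from -0.82 to 0.69 (median -0.0094), with 41 over 0.1. These values show no pairing by number, though they cannot exclude one. With the replicate block 32 and 31 members rose against skin and 0 changed between tumours, and calls over all genes were 7700, 18286, 46 and 0.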
